A study of Mus musculus with 12 samples.

Results

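The EGF-like network of the ovulatory follicle was followed here through 8 genes, 4 ligands (Areg, Ereg, Btc and Hbegf), 3 receptors (Egfr, Erbb2 and Erbb3) and the sheddase Adam17. They were taken by symbol from a list, through their Ensembl identifiers, and all 8 were found in both expression tables, of 35856 genes in all. RNA was sequenced from mural granulosa cells (MGCs), which line the follicle wall, and from cumulus cells, which surround the oocyte. Both cell types came from mice at 2 h post-hCG, the LH-like hormone that starts ovulation. WT (C57/BL6) mice were compared with Sphk1/2gc-/- mice, which lack Sphk1 in every tissue and carry Sphk2 fl/fl with Fshr-Cre, so that Sphk2 is removed where the FSH receptor promoter is active. The study describes prepubertal females primed with eCG, and none of the 4 groups was taken before hCG. There were 3 libraries per group and 12 in all. The labels do not say whether libraries came from separate animals, so p-values measure only the spread between these libraries. Values are FPKM, fragment numbers divided by gene length and library size, which can be compared between genes because they are per length. Fold changes and tests are on log2(FPKM + 1), which understates changes of genes near or below 1 FPKM. A call needed a limma p, adjusted by Benjamini-Hochberg for every gene tested, of at most 0.05 and a fold change of at least 2.

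In the preovulatory follicle, LH acts on mural granulosa cells through its receptor and cAMP, and these cells then make amphiregulin (Areg), epiregulin (Ereg) and betacellulin (Btc). The ligands are made as membrane proteins and are released by ADAM proteases, of which ADAM17 is the best known. Released ligand binds the EGF receptor on mural and cumulus cells and, through the MAPK cascade, turns on genes of cumulus expansion such as Has2, Ptgs2, Tnfaip6 and Ptx3. ERBB2 has no known ligand and signals as a partner of other receptors, and ERBB3 binds neuregulins but has little kinase activity of its own. Sphingosine kinases make sphingosine 1-phosphate, and the comparison by genotype asks what the network's transcripts are in their absence.

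Several facts of the libraries touch the results. Depth was alike, at 16100365 to 19761605 recovered reads per library. The targeted gene Sphk1 had 1.68, 1.88 and 0.460 FPKM in WT MGCs, while Sphk1/2gc-/- MGCs had 0.432, 0.557 and 0.104 FPKM, so that the groups overlap. In cumulus cells labelled Sphk1/2gc-/- it had 0.0778, 0.456 and 0.557 FPKM against 0.0699 to 0.0954 FPKM in WT. This goes against the label in libraries 2 and 3, and all 3 are named knockout-labelled libraries. The levels are low, with means of 0.0855 FPKM in WT and 0.364 FPKM in these libraries. Sphk1 thus fell below the filter of 0.5 FPKM and was not tested in cumulus cells. Its exons overlap Gm29292 on the other strand. Sphk2 did not separate the genotypes in either cell type, with 0.403 to 0.602 FPKM in WT cumulus cells and 0.434 to 0.752 FPKM in knockout-labelled ones. Its exons overlap those of Dbp and Rpl18 on the other strand, and the library kit does not mark strand. Only part of Sphk2 is flanked by loxP sites, and FPKM of a whole gene does not show which exons were read. The paper reported depletion of the protein in granulosa cells by immunofluorescence and western blotting. The Sphk1/2gc-/- MGC library 3 stood apart, its correlation with any other MGC library being 0.912 to 0.939. For Areg, Ereg, Btc, Epgn (a further ligand gene) and the genes called, MGC results are given with and without it. All 10 granulosa markers were above 0.5 FPKM in each group, but the 5 cumulus markers were lower in cumulus libraries than in MGCs, with sums of 236 to 324 FPKM in WT cumulus cells against 830 to 1103 FPKM in WT MGCs. Of these Amh was at 0.102 to 2.16 FPKM in cumulus libraries against 87.3 to 226 FPKM in MGCs, and Slc38a3 at 0.341 to 1.66 FPKM in WT cumulus cells against 23.6 to 41.6 FPKM in WT MGCs. Npr2, Nppc and Fst were also lower in each WT cumulus library than in each WT MGC library. Amh, Slc38a3, Npr2 and Fst thus go against the cumulus label, while the paper places Nppc in MGCs. Lhcgr and Has2 go with the label. Lhcgr, the LH receptor gene, was at 7.71 to 18.7 FPKM in WT cumulus cells and 213 to 565 FPKM in WT MGCs. Has2, a gene of cumulus expansion, was at 31.9 to 74.6 FPKM and 12.7 to 18.3 FPKM. Other genes of cumulus expansion were split. Ptx3 was higher in WT cumulus cells (91.3 to 218 FPKM) than in WT MGCs (44.2 to 54.6 FPKM). Tnfaip6 (122 to 282 against 747 to 938 FPKM) and Ptgs2 (64.1 to 127 against 268 to 365 FPKM) were lower in WT cumulus cells. The markers are thus mixed, and each contrast of the wall with cumulus cells rests on the labels alone. The summed oocyte markers were also higher in MGCs, at 37.4 to 96.3 FPKM in WT MGCs and 4.6 to 8.22 FPKM in WT cumulus cells. In bulk RNA, fewer cells of a type and less RNA per cell cannot be told apart.

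Of the 4 ligand genes, 3 are neighbours. In GENCODE M21 (GRCm38), Ereg (chromosome 5, 91074622 to 91093646, plus strand), Areg (91139599 to 91148432, plus strand) and Btc (91357261 to 91402994, minus strand) lie with a further ligand gene, Epgn (epigen, 91027464 to 91035215, plus strand), in a block of 376 kb with 4 protein-coding genes of 7 genes annotated. Egfr and Erbb2 lie on chromosome 11 (16752203 to 16918158 and 98412470 to 98437716, both plus strand). Erbb3 lies on chromosome 10 (128567523 to 128589652, minus strand) and Adam17 on chromosome 12 (21323509 to 21373632, minus strand). The first exon of Ereg shares bases with Gm19610 on the other strand, and Erbb2 and Adam17 overlap exons of Mien1 and Iah1 on the other strand. As the library kit does not mark strand, reads in these overlaps cannot be told apart.

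Promoters are shown for the ligands Areg and Btc and for Egfr, since cAMP acts on many genes through the cAMP response element and the letters of the 3 windows differ in it. RefSeq windows of 300 bases around the transcription start (GRCm38.p6) were matched for 5 of the 8 genes, Areg, Btc, Egfr, Erbb2 and Adam17. They were searched on both strands for the full element, TGACGTCA, which reads the same on either strand, and for its core TGACG, which the full element also contains. The windows printed are Areg (chr5:91139349-91139648, plus strand), Btc (chr5:91402945-91403244, minus strand) and Egfr (chr11:16751953-16752252, plus strand), each 5′ to 3′ along its gene, with the element and its core (CGTCA where it is on the other strand) in capitals.
Areg: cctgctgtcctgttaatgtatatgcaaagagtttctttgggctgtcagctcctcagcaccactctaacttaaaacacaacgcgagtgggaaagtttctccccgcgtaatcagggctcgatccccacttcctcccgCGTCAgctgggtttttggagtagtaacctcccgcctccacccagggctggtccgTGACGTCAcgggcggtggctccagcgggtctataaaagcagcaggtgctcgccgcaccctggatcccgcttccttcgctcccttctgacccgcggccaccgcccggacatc
Btc: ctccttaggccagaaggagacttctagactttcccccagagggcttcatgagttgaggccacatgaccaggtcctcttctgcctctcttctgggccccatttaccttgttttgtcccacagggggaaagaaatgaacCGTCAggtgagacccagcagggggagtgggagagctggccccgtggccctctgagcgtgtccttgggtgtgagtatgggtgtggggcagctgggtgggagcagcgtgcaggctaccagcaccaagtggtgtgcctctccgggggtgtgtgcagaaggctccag
Egfr: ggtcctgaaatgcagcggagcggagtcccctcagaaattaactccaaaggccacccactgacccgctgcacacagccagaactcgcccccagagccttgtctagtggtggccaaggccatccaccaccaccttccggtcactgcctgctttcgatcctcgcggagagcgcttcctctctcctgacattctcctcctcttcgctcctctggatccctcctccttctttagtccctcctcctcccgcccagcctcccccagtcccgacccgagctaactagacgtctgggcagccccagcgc

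The full element was in the Areg window only, of the 5, starting at -61 from the transcription start, and it is in 1.79% of all 32851 windows. A further core lay on the other strand of Areg at -115. The core was also on the other strand of Btc at -113 and of Erbb2 at -171, and neither Egfr nor Adam17 held it. It is in 20.8% of all windows. A TATA box (TATAAA) was in the Areg window alone of the 5 and is in 13.6% of all windows. These are matches of letters, with no measurement of binding.

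Expression in WT was higher in the follicle wall. The 3 WT MGC libraries had 1672, 1552 and 1705 FPKM of Areg, and the WT cumulus libraries had 85.9, 43.4 and 93.5 FPKM. It ranked 11 among all genes in each WT MGC library and between 633 and 1269 in the cumulus libraries. Areg thus stood among the most abundant messages of MGCs while remaining moderate around the oocyte.

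For Ereg the MGC values were 977, 854 and 908 FPKM and the cumulus values 32.8, 13.0 and 26.0 FPKM. Those of Btc were 189, 166 and 152 FPKM in the wall and 14.6, 10.6 and 20.8 FPKM around the oocyte. For each of the 3 neighbours every MGC library lay above every cumulus library. The ratio of mean FPKM in WT, MGCs over cumulus cells, was 38.1 for Ereg, 22.1 for Areg and 11.0 for Btc.

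Hbegf, the membrane-anchored heparin-binding ligand, is encoded on chromosome 18 and had another pattern. WT MGCs had 6.13, 6.78 and 3.32 FPKM of it, and WT cumulus cells had 2.02, 3.12 and 2.93 FPKM. The groups did not overlap, but MGC library 3 was close to the highest cumulus library and the ratio of means was 2.01. Together the 4 ligands took 0.619% to 0.695% of all recovered reads in WT MGCs and 0.0169% to 0.0329% in WT cumulus cells.

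**Figure D1:**
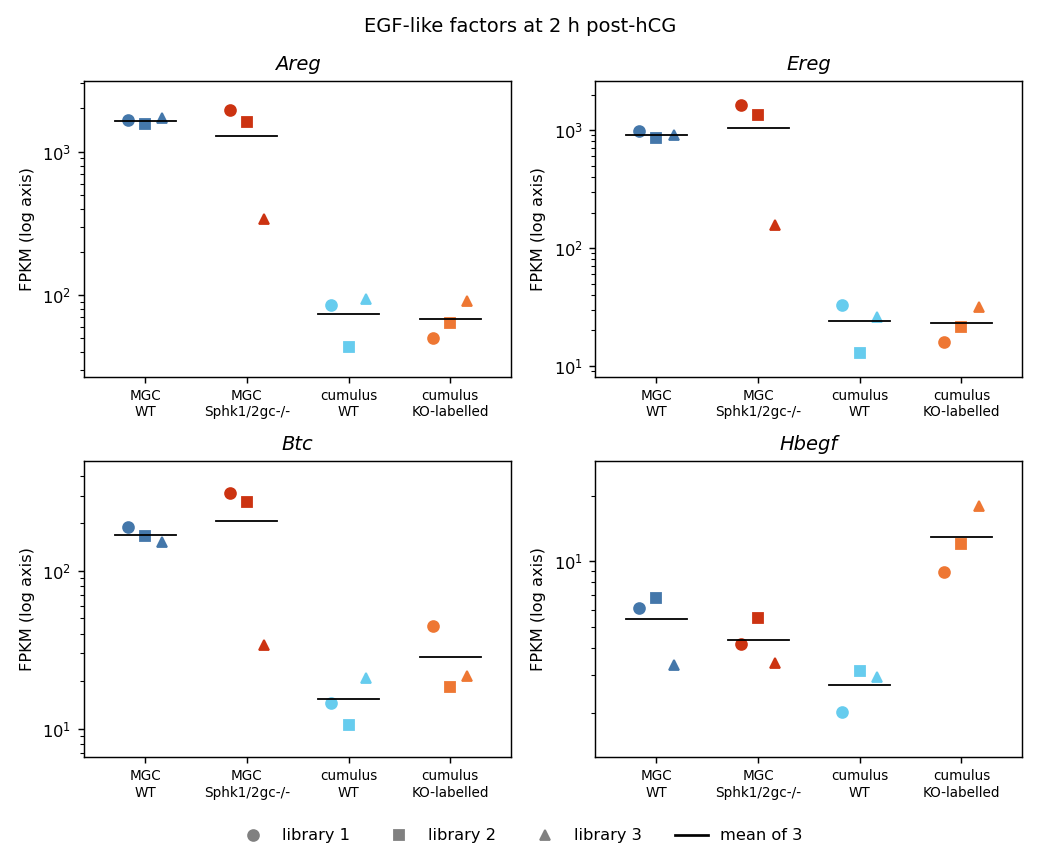
FPKM of Areg, Ereg, Btc and Hbegf (log axis) in each of the 12 libraries, by group; symbols are the 3 libraries of a group and black lines are their means. In WT, Areg, Ereg and Btc sit far above the cumulus libraries in MGCs (Areg at 1552 FPKM or more), Sphk1/2gc-/- MGC library 3 falls to 340 FPKM for Areg, and Hbegf is highest in the knockout-labelled cumulus libraries (8.90 to 18.0 FPKM).

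The receptors were expressed at lower levels than Areg, Ereg and Btc and were also higher in the wall. WT MGCs had 8.34, 9.01 and 14.8 FPKM of Egfr, and WT cumulus cells had 3.26, 1.89 and 2.03 FPKM. For Erbb2 the values were 7.03, 7.40 and 6.08 FPKM in MGCs against 0.358, 0.523 and 0.590 FPKM in cumulus cells. Egfr in WT cumulus cells thus stood at 22.3% of its level in MGCs, and Erbb2 at 7.17%.

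Erbb3 was low throughout, at 0.615, 0.684 and 0.532 FPKM in WT MGCs (61, 69 and 54 reads) and at 0.103, 0.139 and 0.104 FPKM in WT cumulus cells (10, 15 and 11 reads). Adam17 had 23.1, 22.5 and 29.8 FPKM in WT MGCs against 11.2, 9.93 and 12.4 FPKM in WT cumulus cells, the smallest difference after Hbegf by ratio of means (2.25). Erbb4, the remaining receptor of the family, was near detection with at most 16 reads in any library.

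Ordered by level in WT MGCs, the 8 genes ran Areg, Ereg, Btc, Adam17, Egfr, Erbb2, Hbegf and Erbb3. Erbb2 and Hbegf overlapped in their libraries and the other neighbours in this order did not. In WT cumulus cells the order was Areg, Ereg, Btc, Adam17, Hbegf, Egfr, Erbb2 and Erbb3, and Ereg overlapped with Btc, Btc with Adam17 and Hbegf with Egfr. Areg was the highest of the 8 in each of the 12 libraries, and the Ereg to Areg ratio of FPKM was 0.532 to 0.584 in WT MGCs and 0.278 to 0.382 in WT cumulus cells.

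**Figure D2:**
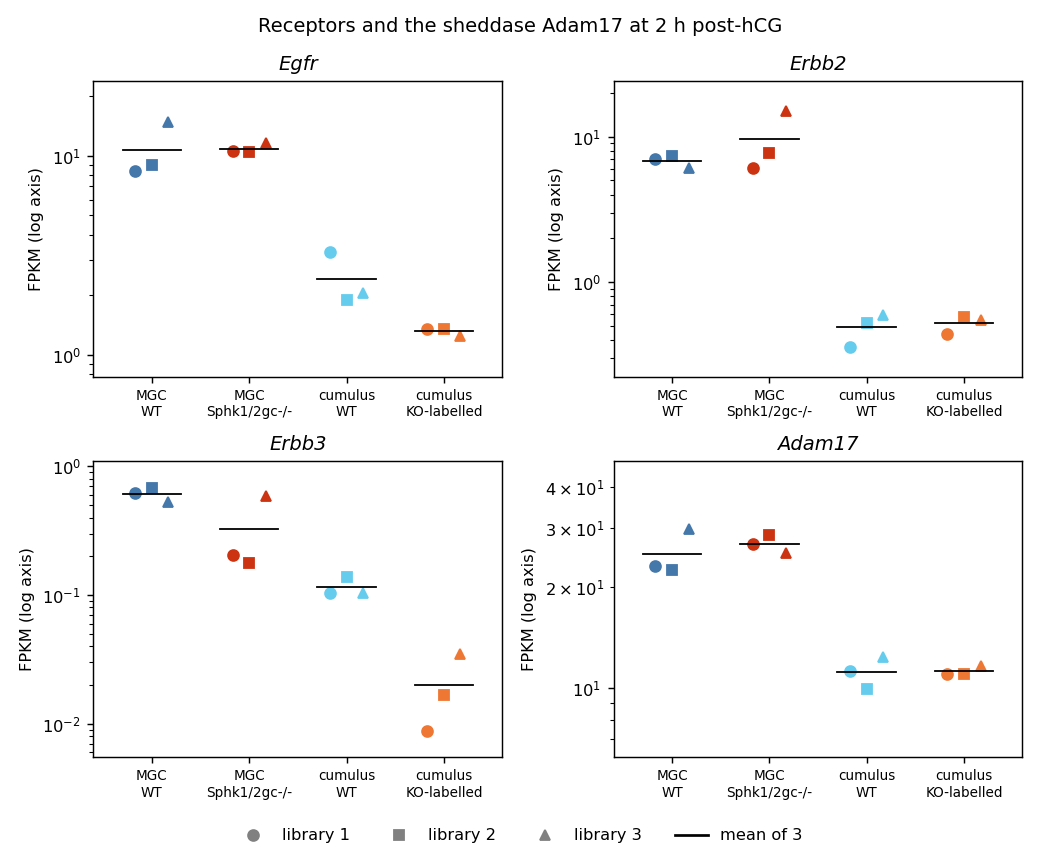
FPKM of Egfr, Erbb2, Erbb3 and Adam17 (log axis) in each of the 12 libraries, by group; symbols are the 3 libraries of a group and black lines are their means. All 4 genes are higher in MGCs than in cumulus cells of WT, and Egfr in the knockout-labelled cumulus libraries (1.24 to 1.35 FPKM) lies below the WT cumulus libraries (1.89 to 3.26 FPKM).

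The contrast of WT MGCs with WT cumulus cells in the fit of all 12 libraries called 6 of the 8 genes, all as higher in MGCs, where 48.7% of the 15869 genes tested were called and 33.3% were called as higher. All 8 passed the adjusted p as higher, as did 52.5% of all genes, and all 8 were higher with no overlap of the groups, as were 55.7%. The log2 fold changes were 5.29 for Ereg (SE 0.693, limma adjusted p = 2.2e-05), 4.52 for Areg (SE 0.535, adjusted p = 9.17e-06) and 3.42 for Btc (SE 0.666, adjusted p = 0.00054). Those 3 ligands lay far from the median of all genes, which was 0.54.

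Erbb2 followed at 2.39 log2 units (SE 0.243, limma adjusted p = 2.41e-06) and Egfr at 1.77 (SE 0.206, adjusted p = 8.04e-06). Adam17 was at 1.10 (SE 0.138, limma adjusted p = 1.56e-05) and fell below a fold change of 2, at 0.97, without WT MGC library 3. Hbegf (0.77, SE 0.275, adjusted p = 0.0234) and Erbb3 (0.53, SE 0.124, adjusted p = 0.00207) passed the adjusted p and not the fold change. With the library number as a block Hbegf was called (1.21, adjusted p = 0.00373), as it was without WT MGC library 3 (1.03, adjusted p = 0.00527), and Erbb3 no longer passed the adjusted p (0.0579). The adjusted p of Hbegf rose above 0.05 when any 1 of WT MGC libraries 1 and 2 or WT cumulus library 1 was left out (0.0789, 0.0958 and 0.0879).

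The tables of the cell types are separate, so this contrast assumes that FPKM is on 1 scale in both. The WT difference also moved with base composition and length over all genes. Its median was -0.06 in the 3963 genes with the lowest GC content of the longest transcript (21.8% to 44.3%) and 1.14 in the 3962 with the highest (53.9% to 78.3%), and 0.12 and 0.91 in the shortest 3964 and the longest 3960. Btc and Ereg, at 37.7% and 39.2% GC, belong to the lowest range and Erbb2, at 57.3%, to the highest. The part of composition and length in these differences was not tested.

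In MGCs the question was whether the loss of the kinases changed the wall's production of the ligands. No member passed the test in MGCs, 0 of 8, and in this comparison 0.0393% of the 15279 genes tested were called, 6 genes (3 with the library number as a block), while 1406 genes had a p of 0.05 or less before adjustment. Before adjustment 0 of the 8 members did so, and voom on recovered reads also called 0. Sphk1/2gc-/- library 3 decided the ligand values. Ereg was at 1628, 1354 and 157 FPKM in Sphk1/2gc-/- MGC libraries 1 to 3 against 854 to 977 FPKM in WT, and Btc was at 310, 275 and 33.7 FPKM against 152 to 189 FPKM.

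Libraries 1 and 2 thus lay above, and library 3 below, each WT library for both genes, as was so for 3.87% of all genes tested. Areg was at 1940, 1605 and 340 FPKM, with library 2 inside the WT range of 1552 to 1705 FPKM. In library 3 the FPKM of Ereg, Areg and Btc were 5.42-fold, 4.56-fold and 4.5-fold below the next lowest of the 6 libraries. A gap of more than 4-fold below the next library was found for 2.17% of all genes tested.

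Over all 6 libraries the log2 fold change was -0.69 for Areg (SE 0.626, limma adjusted p = 0.781), -0.37 for Ereg (SE 0.836, adjusted p = 0.933) and -0.23 for Btc (SE 0.794, adjusted p = 0.956). Their 95% intervals were wide, for Ereg from -2.36 to 1.61. Without Sphk1/2gc-/- MGC library 3 the values turned to 0.10 for Areg (limma adjusted p = 0.719), 0.70 for Ereg (adjusted p = 0.0812) and 0.79 for Btc (adjusted p = 0.0524). With libraries 1 and 2 of each genotype alone they were 0.13, 0.70 and 0.72 (limma adjusted p = 0.478, 0.0317 and 0.0179), none of them a fold change of 2.

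The balance between the ligands differed in the same libraries. The Ereg to Areg ratio was 0.839 and 0.844 in Sphk1/2gc-/- MGC libraries 1 and 2, above the WT range of 0.532 to 0.584, and 0.462 in library 3. The 4 ligands together took 1.05%, 0.881% and 0.123% of recovered reads in the Sphk1/2gc-/- MGC libraries against 0.619% to 0.695% in WT. Areg ranked 10 and 13 among all genes in libraries 1 and 2 and 71 in library 3.

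Epgn, the other ligand of the chromosome 5 block, did not follow its neighbours in libraries 1 and 2. It had 73.1, 58.7 and 40.2 FPKM in WT MGCs against 36.8, 31.0 and 4.93 FPKM in Sphk1/2gc-/- MGCs. All Sphk1/2gc-/- values lay below all WT values, as for 9.17% of the genes tested, and the fitted change was -1.56 log2 units (SE 0.686, limma adjusted p = 0.555). It was -0.71 without library 3 (adjusted p = 0.207) and -0.94 with libraries 1 and 2 of each genotype (adjusted p = 0.021), below a fold change of 2. In cumulus cells Epgn had 12.0, 6.56 and 9.30 FPKM in WT against 7.05, 4.17 and 1.90 FPKM in the knockout-labelled libraries, a log2 difference of -1.02 (SE 0.359, limma adjusted p = 0.0748).

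The 8 genes listed as targets in cumulus expansion included Pgr, which had at most 1.88 FPKM in the cumulus libraries. All 8 were lowest of the 6 MGC libraries in library 3, as were 19.6% of all genes tested, and 4 of them were more than 4-fold below the next library. Ptgs2, the inducible prostaglandin synthase, was at 24.6 FPKM there and at 268 to 447 FPKM in the other 5 MGC libraries. Tnfaip6 was at 144 against 747 to 1605 FPKM, Ptx3 at 9.08 against 44.2 to 114 FPKM and Pgr, the progesterone receptor, at 16.2 against 98.8 to 139 FPKM. Has2, Cebpb, Egr1 and Fos were 1.17-fold to 1.37-fold below the next library. The summed red cell markers of this library were 30.2 FPKM against 225 to 396 FPKM in the other MGC libraries, and those of leukocytes 30.2 against 52.1 to 221 FPKM. Granulosa markers summed to 12750 FPKM, within the range of the other MGC libraries (9282 to 16054 FPKM), but Inha made up 9381 FPKM of this sum. Single markers left the range of the other MGC libraries in both directions. Cyp11a1 was lower, at 58.2 against 160 to 520 FPKM, and Foxl2 was higher, at 55.9 against 14.8 to 22.3 FPKM. The part of these in the ligand values was not tested.

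**Figure D3:**
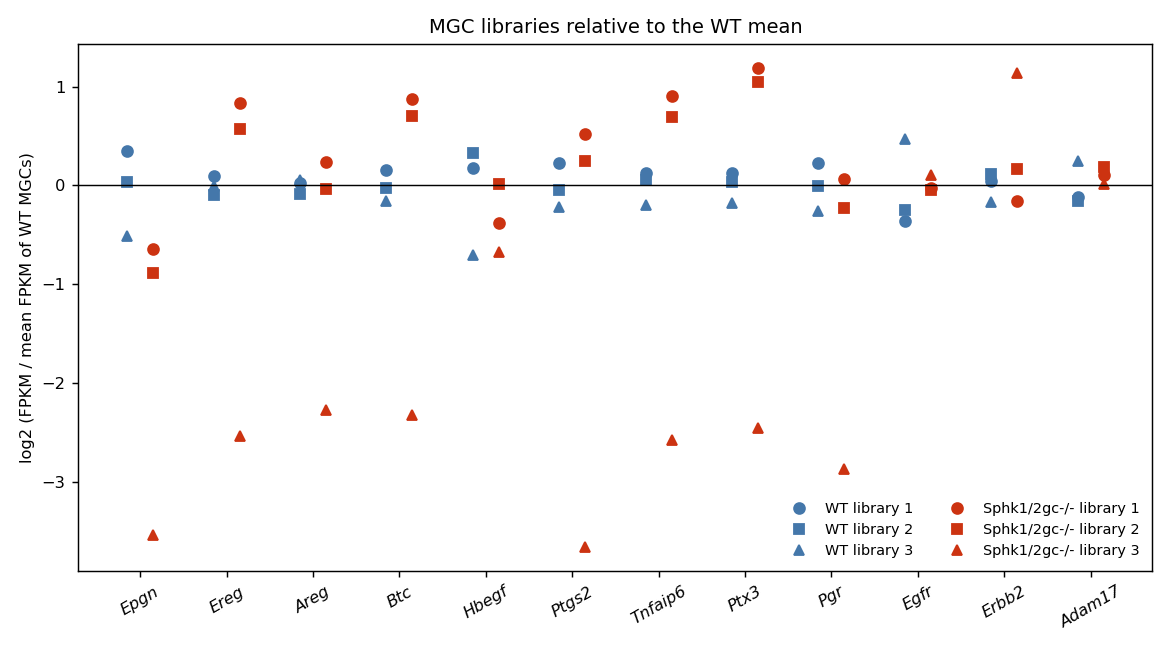
Log2 ratio of FPKM to the mean of the 3 WT MGC libraries, for 12 genes (4 ligands of the chromosome 5 block, Hbegf, 4 downstream genes, 2 receptors and Adam17) in the 6 MGC libraries; colours are genotypes and symbols are libraries. Sphk1/2gc-/- library 3 lies from -2.27 (Areg) to -3.66 (Ptgs2) for the block and the downstream genes, while Egfr (0.10) and Adam17 (0.02) stay near the WT mean and Erbb2 is higher (1.14).

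Hbegf and the receptors did not share the drop in library 3. Hbegf was at 4.15, 5.47 and 3.40 FPKM in Sphk1/2gc-/- MGCs, overlapping with WT, and Egfr at 10.5, 10.4 and 11.5 FPKM, inside the WT range. Adam17 was at 27.0, 28.7 and 25.4 FPKM, inside the WT range too. Their log2 fold changes were -0.24 for Hbegf (SE 0.269), 0.05 for Egfr (SE 0.217) and 0.11 for Adam17 (SE 0.146), with limma adjusted p of 0.836, 0.964 and 0.865.

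Erbb2 was at 6.13, 7.69 and 15.1 FPKM in Sphk1/2gc-/- MGCs, so that library 3 alone lay far above the WT libraries. Of all genes tested 45.4% were highest of the MGC libraries in library 3. The log2 fold change of Erbb2 was 0.36 (SE 0.301, limma adjusted p = 0.762), and 0.01 to 0.6 when an MGC library was left out. Erbb3 was at 0.206, 0.177 and 0.589 FPKM (21, 18 and 64 reads), with libraries 1 and 2 below each WT library and library 3 within them. Its log2 fold change was -0.30 (SE 0.176, limma adjusted p = 0.666). For Egfr the 95% interval was -0.47 to 0.56 and for Adam17 -0.24 to 0.46, so that a fold change of 2 in either direction lay outside both.

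In cumulus cells the question was whether the cells around the oocyte differed in ligand or receptor messages. Hbegf rose in the knockout-labelled libraries. It was at 2.02, 3.12 and 2.93 FPKM in WT and at 8.90, 12.0 and 18.0 FPKM in these libraries. The groups were far apart, and the log2 fold change was 1.88 (SE 0.25, 95% interval 1.31 to 2.46, limma adjusted p = 0.00263). Left out 1 at a time, no cumulus library ended the call, with log2 fold changes of 1.63 to 2.10.

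Hbegf was the 1 gene called of the 7 members that could be tested, where 8.04% of the 12205 genes tested were called and 4.19% were called as higher. A single call among 7 is not a result about the group. Hbegf made up 1.49% to 4.44% of the summed FPKM of the 4 ligands in WT cumulus cells and 7.41% to 11.1% in the knockout-labelled libraries.

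The other ligands did not pass. Areg was at 50.1, 64.5 and 90.8 FPKM in the knockout-labelled cumulus libraries and Ereg at 16.1, 21.6 and 31.9 FPKM, both within the WT range. Their log2 fold changes were -0.08 (SE 0.322, limma adjusted p = 0.877) and 0.00 (SE 0.352, adjusted p = 0.998), with 95% intervals of -0.82 to 0.65 and -0.81 to 0.81. Btc was at 45.0, 18.3 and 21.6 FPKM, with libraries 1 and 3 above the WT libraries, library 3 by little (20.8 FPKM in the highest WT library). Library 2 lay among them. Its log2 fold change was 0.78 (SE 0.35, limma adjusted p = 0.141) and 0.40 (adjusted p = 0.274) without library 1.

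Egfr was at 1.35, 1.34 and 1.24 FPKM in the knockout-labelled libraries, each below the WT cumulus libraries. This lack of overlap in the lower direction was found for 24.1% of all genes tested, and 42.3% had no overlap in either direction. The log2 fold change of -0.53 (SE 0.177) did not pass, with a limma adjusted p of 0.0624. At such levels this scale understates a change, and Egfr had 385 to 595 reads in WT and 269 to 299 reads in the other group.

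Erbb2 was at 0.438, 0.573 and 0.550 FPKM in the knockout-labelled cumulus libraries and overlapped with WT (log2 fold change 0.03, SE 0.134, limma adjusted p = 0.889). Adam17 was at 11.0, 11.0 and 11.6 FPKM, inside the WT range (log2 fold change 0.01, SE 0.144, 95% interval -0.32 to 0.34, limma adjusted p = 0.982). Erbb3 fell below the filter of 0.5 FPKM and was not tested. Its reads were 1, 2 and 4 in these libraries and 10, 15 and 11 in WT, which did not overlap.

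Some marker sums differed between the genotypes in these libraries. Summed red cell markers were 4.37 to 26.8 FPKM in WT cumulus cells and 0.3 to 1.78 FPKM in the knockout-labelled libraries, and granulosa markers 3818 to 4936 FPKM and 2566 to 2920 FPKM. Oocyte markers summed to 4.6 to 8.22 FPKM and 2.75 to 3.3 FPKM, so that the sums of all 3 lists were lower with no overlap. Not every marker followed its sum. Of the granulosa markers, Inha (1213 to 2114 FPKM in WT and 1772 to 1966 FPKM) and Amhr2 (11.6 to 24.0 and 10.3 to 19.9 FPKM) overlapped. Leukocyte markers (3.42 to 37.1 and 10.5 to 62.6 FPKM, with Cd74 at 0 in WT) and those of theca and stroma (18.1 to 66.3 and 11.9 to 33.7 FPKM) overlapped. Their part in the Hbegf value was not tested.

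**Figure D4:**
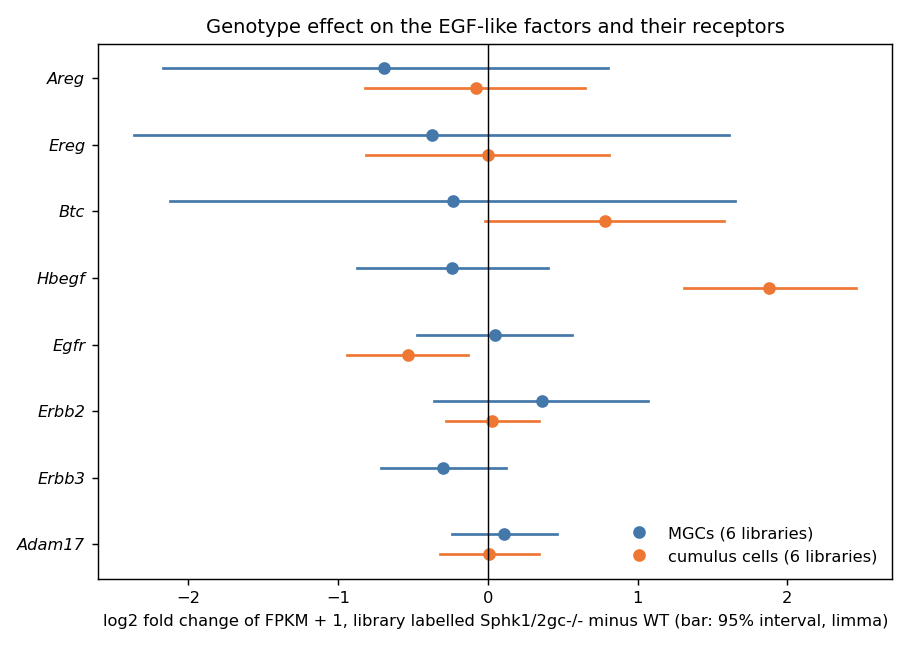
Log2 fold change of FPKM + 1 of the 8 genes in MGCs (Sphk1/2gc-/- minus WT) and of 7 in cumulus cells (knockout-labelled minus WT); points are limma estimates over 6 libraries and bars are 95% intervals. Hbegf in cumulus cells (1.31 to 2.46) is the only called interval, and those of Areg, Ereg and Btc in MGCs are the widest (-2.36 to 1.61 for Ereg).

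The genotype difference itself was compared between the cell types. For Hbegf it was larger in cumulus cells than in MGCs by 2.12 log2 units (SE 0.39, 95% interval 1.27 to 2.97, limma adjusted p = 0.0176). It was the only member of 8 called, where 3.31% of the 15869 genes tested were called and 2.06% were called as higher in cumulus cells. The 526 genes called in all became 106 to 199 without WT MGC library 1 or 2, WT cumulus library 1 or 2 or knockout-labelled cumulus library 2 or 3, and 870 and 927 without WT MGC library 3 and knockout-labelled cumulus library 1. The Hbegf call was lost without WT MGC library 1 (2.02, adjusted p = 0.0612), WT MGC library 2 (1.96, adjusted p = 0.0561) or WT cumulus library 1 (1.98, adjusted p = 0.0542). The other 7 had adjusted p of 0.269 (Egfr, -0.58) or more, and for Btc the 95% interval of the difference ran from -1.04 to 3.07.

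The pathway around the members was described by 73 further genes in 7 lists (other ligands, ERBB4, shedding, receptor inhibition, the MAPK cascade, other effectors and targets in cumulus expansion). In MGCs 67 of them could be tested and 0 passed (2 at an unadjusted p of 0.05 or less, and 0 called by voom), with a median log2 fold change of 0.00, as for all genes. Without Sphk1/2gc-/- MGC library 3, Ptx3 was called (1.10, SE 0.117, limma adjusted p = 0.0185), where 1.12% of all genes tested were (170 of 15215). With libraries 1 and 2 of each genotype alone, Ptx3 (1.02, SE 0.0741, adjusted p = 0.00563) and Pik3r1, a regulatory subunit of PI3 kinase (-1.01, SE 0.0649, adjusted p = 0.00483), were called, where 3.09% of all genes tested were (477 of 15433).

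In cumulus cells 58 of the 73 could be tested. By adjusted p alone 11 were higher and 2 lower, against 9.66% and 12.7% of all genes, and 6 were called, all as higher, against 8.04% of all genes called and 4.19% called as higher. Their median was 0.14, and that of all genes -0.06. By list, the called genes were 1 of 6 tested in shedding, 2 of 11 in receptor inhibition, 1 of 15 in other effectors and 2 of 8 targets in cumulus expansion.

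Among shedding genes, Rhbdf2, the inactive rhomboid protein that carries ADAM17 to the surface, was at 2.75, 2.64 and 3.21 FPKM in WT cumulus cells. It was at 7.27, 9.02 and 16.0 FPKM in the knockout-labelled libraries, with no overlap (log2 fold change 1.54, SE 0.256, limma adjusted p = 0.00574). Its paralog Rhbdf1 passed the adjusted p alone (0.74, SE 0.17, adjusted p = 0.0188). Adam10, another sheddase, was at 25.4 to 27.0 FPKM in WT and 25.0 to 28.5 FPKM in these libraries (-0.01, adjusted p = 0.974).

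Of the inhibitors, Errfi1, which binds and blocks the EGF receptor kinase, was at 66.6, 56.7 and 102 FPKM in WT cumulus cells. In the knockout-labelled libraries it was at 213, 226 and 381 FPKM, all above WT (1.85, SE 0.284, limma adjusted p = 0.00455). Socs3, a suppressor of cytokine signalling, was at 0.129, 0.423 and 0.177 FPKM in WT and at 1.85, 3.41 and 4.87 FPKM in the others (1.76, SE 0.255, adjusted p = 0.00363). Socs5 passed the adjusted p alone (0.72, SE 0.162, adjusted p = 0.0172).

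Of the effectors, the adaptor Nck2 was at 2.34, 1.84 and 2.97 FPKM in WT cumulus cells and at 6.01, 7.91 and 8.05 FPKM in the knockout-labelled libraries (1.30, SE 0.181, limma adjusted p = 0.00312). Nck2 was also the only pathway gene whose genotype difference was called as differing between the cell types (1.41, SE 0.249, adjusted p = 0.016). Nras (0.81), Stat3 (0.87) and Akt1 (0.63) were higher by adjusted p alone, and Jak1 (-0.65) and Stat5a (-0.66) lower.

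Of the targets in cumulus expansion, Tnfaip6, which links hyaluronan to heavy chains, was at 159, 122 and 282 FPKM in WT cumulus cells and at 425, 576 and 606 FPKM in the knockout-labelled libraries (1.58, SE 0.3, limma adjusted p = 0.00937). Ptx3, a pentraxin of the same matrix, was at 124, 91.3 and 218 FPKM and at 526, 337 and 522 FPKM (1.73, SE 0.321, adjusted p = 0.00838). Neither gene overlapped between the groups. Has2, the hyaluronan synthase, was at 59.8, 31.9 and 74.6 FPKM and at 62.0, 88.3 and 89.6 FPKM (0.58, adjusted p = 0.199), and Ptgs2 was at 64.1 to 127 and 75.6 to 115 FPKM (-0.04, adjusted p = 0.93).

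Of the other ligands, Tgfa was at 3.27 to 3.70 FPKM in WT MGCs and 2.78 to 3.81 FPKM in Sphk1/2gc-/- MGCs, and below 0.5 FPKM in cumulus cells. Egf itself had at most 15 reads in any library. Nrg1, a ligand of ERBB3, was at 0.183 to 0.433 FPKM in WT MGCs and at 0.107 to 0.530 FPKM in Sphk1/2gc-/- MGCs, and lower in cumulus cells (at most 0.156 FPKM).

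**Figure D5:**
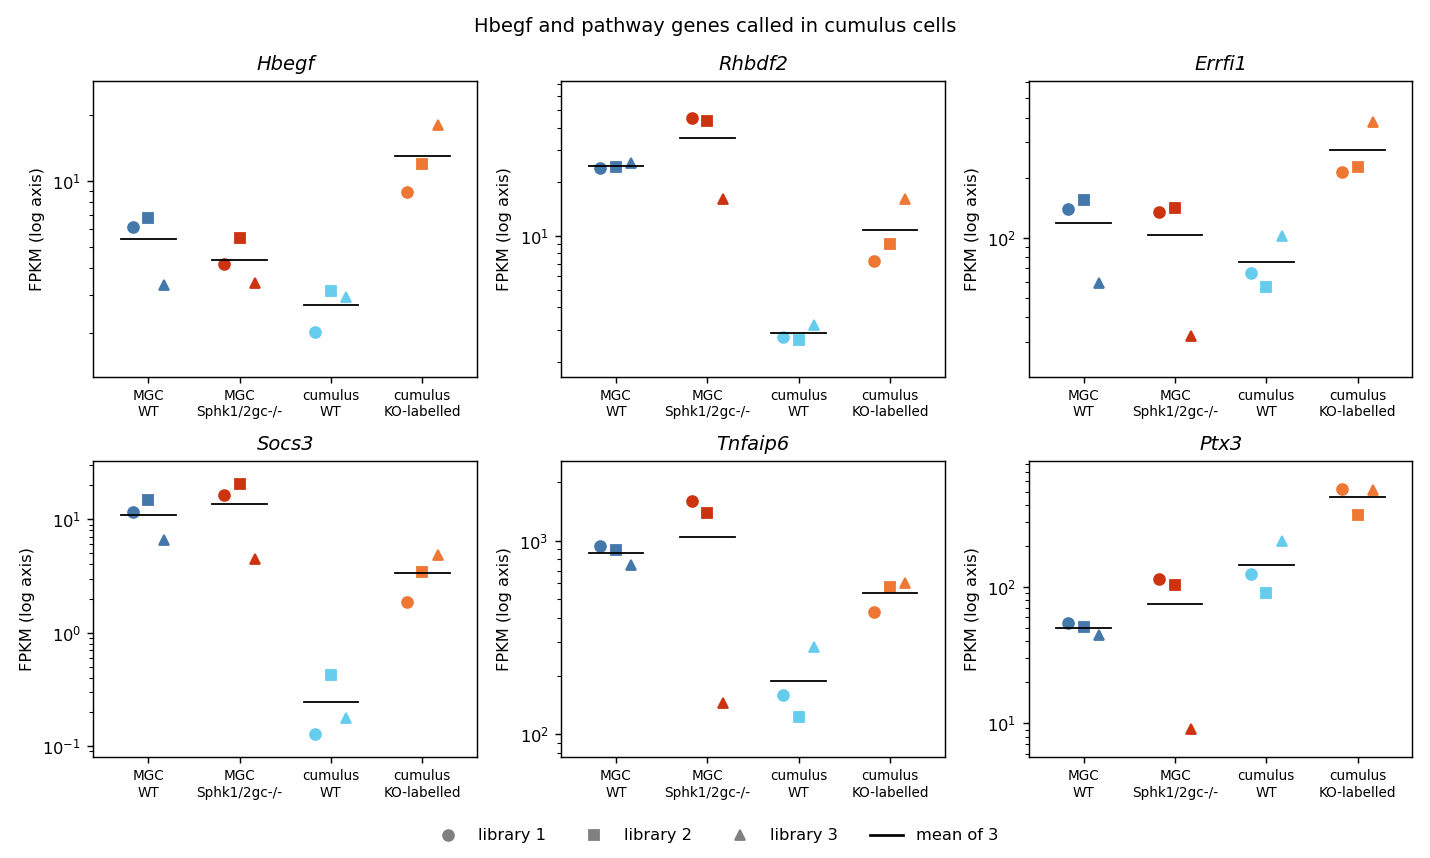
FPKM of Hbegf and of 5 of the 6 pathway genes called in cumulus cells (log axis; Nck2 is not drawn) in each of the 12 libraries, by group; symbols are the 3 libraries of a group and black lines are their means. In cumulus cells all knockout-labelled libraries lie above all WT libraries for each gene (Errfi1 at 213 FPKM or more against 102 FPKM or less). In MGCs the genotypes overlap for Hbegf and Errfi1. For Rhbdf2, Socs3, Tnfaip6 and Ptx3, Sphk1/2gc-/- MGC libraries 1 and 2 lie above all WT MGC libraries and library 3 lies below them.

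The genes with the pattern most like 3 of the members were found over the 12 libraries by the root mean square difference of log2(FPKM + 1) after centring each gene, among the 6719 genes that averaged 5 FPKM or more. For Areg they were F3 (tissue factor, 0.304), Far1os (0.348) and Dnaja4 (0.393), beside an SD of 2.32 of Areg itself. F3 was at 1560, 1380 and 1330 FPKM in WT MGCs, 192 FPKM in Sphk1/2gc-/- MGC library 3 and 24.1 to 60.0 FPKM in cumulus libraries. For Ereg they were Vcan (versican, 0.442), Pgr (0.478) and F3 (0.487).

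Areg and Ereg differed from each other by 0.508, and neither was among the 3 genes most like the other. Vcan, like Ereg, was higher in Sphk1/2gc-/- MGC libraries 1 and 2 (748 and 614 FPKM) than in WT (366 to 485 FPKM), and lower in library 3 (134 FPKM). For Egfr they were Mmgt1 (0.196), Akap11 (0.205) and March6 (0.206), beside an SD of 1.12. The 12 libraries differ in cell type and genotype, and these differences enter the likeness, so these are descriptions with no test.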

How the data were processed

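RNA of 12 libraries was sequenced in 4 groups of 3. The authors deposited FPKM values, in 1 table for MGCs (29101 genes) and 1 for cumulus cells (33137 genes). The submitters' processing notes name HISAT2 and GRCm38. The counting tool is not given in the sources used here. FPKM times the exon length in GENCODE M21 gave whole reads for 90.6% to 92.1% of values above 0 (tolerance 0.02 reads), and these reads give depth and levels near detection. For Hbegf 1 of 12 values came out whole, so its share of reads is approximate.

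Genes that averaged 0.5 FPKM or more in a group were tested with limma 3.58.1 (trend, R 4.3.3) on log2(FPKM + 1), within each cell type and, for differences between cell types, over all 12 libraries. The 8 genes, the pathway lists and the rule for named genes were chosen with earlier results of these data known. Named were the members, pathway genes past an adjusted p of 0.05, some fixed ligands, receptors and targets, Sphk1 and Sphk2, and the 3 genes most like Areg, Ereg and Egfr. Epgn, Pgr and the genes called under left-out libraries were named after their values were seen.

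Libraries of the same number deviated together in MGCs (correlations 0.22, 0.158 and 0.224) and not in cumulus cells (-0.148, -0.0511 and 0.115). Libraries of different numbers were not compared in this way, so a pairing by number is not shown, and the labels give none. Alternatives were another pseudocount, filter, scaling and variance trend, a replicate block, left-out libraries and a test on recovered reads.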

Additional observations from a re-analysis of the deposited data

Results flagged for a closer look

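The genotype effect on Hbegf differed between the cell types. The interaction of genotype and cell type in the fit of all 12 libraries was 2.12 log2 units (SE 0.39, limma adjusted p = 0.0176), from a log2 fold change of 1.88 in cumulus cells and of -0.24 in MGCs. Every cumulus library labelled Sphk1/2gc-/- lay above every WT cumulus library, and in MGCs the groups overlapped.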

How the results depend on the processing

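The call of Hbegf in cumulus cells held under each alternative run, with log2 fold changes of 1.63 to 2.10 when a library was left out and 2.31 with voom on recovered reads (adjusted p = 0.000294), an alternative chosen after seeing the data. The planned tests on counts were not run, because the values are FPKM. With the number of the library as a block the Hbegf difference between cell types was 2.12 (adjusted p = 0.00724) and its WT MGC to cumulus difference 1.21 (adjusted p = 0.00373, then called), while Erbb3 no longer passed the adjusted p there (0.0579), and the block changed no other call of a member. The block moved the genes called in all from 526 to 817 for the difference between cell types, and left-out libraries to 106 to 927. The count of members called for the difference between cell types ranged from 0 to 1 when a library was left out, and the pathway count in MGCs from 0 to 1. With MGC libraries 1 and 2 of each genotype that count was 2. Left-out MGC libraries moved the count of all genes called in MGCs from 6 to 170 without Sphk1/2gc-/- library 3 and to 0 to 2 without any other.

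Signs turned only for values that did not pass in the fit of all libraries. With median-ratio scaling the cumulus values were 0.01 for Areg and 0.08 for Ereg, with a pseudocount of 0.1 FPKM Ereg was at 0.00, and with voom they were 0.00 and 0.09, and the difference between cell types of Erbb3 was -1.32. With MGC libraries 1 and 2 of each genotype the MGC values were 0.13 for Areg, 0.70 for Ereg, 0.72 for Btc and -0.06 for Erbb2, and the differences between cell types -0.21 for Areg, -0.70 for Ereg and 0.09 for Erbb2. Left-out libraries gave MGC ranges of -1.15 to 0.10 for Areg, -0.98 to 0.70 for Ereg, -0.79 to 0.79 for Btc and -0.10 to 0.29 for Egfr. In cumulus cells they were -0.43 to 0.12 for Areg, -0.37 to 0.27 for Ereg, -0.07 to 0.08 for Adam17 and -0.03 to 0.08 for Erbb2. For the difference between cell types they were -0.19 to 1.07 for Areg, -0.71 to 0.98 for Ereg, -0.01 to 1.57 for Btc and -0.57 to 0.02 for Erbb2.

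The cause of these changes was not tested. Adam17 fell under a fold change of 2 between the cell types with scaling (0.98), MGC libraries 1 and 2 (0.97) and voom (0.62). Erbb3 passed it with a pseudocount of 0.1 FPKM (1.72) and voom (1.81), and Hbegf no longer passed an adjusted p of 0.05 with voom (0.41, adjusted p = 0.315). At 1 to 15 reads, Erbb3 in cumulus cells is limited by depth.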
